A study of Mus musculus with 4514 samples.

Results

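Hepatocytes taken from mouse liver at postnatal day 12 (P12) were compared with hepatocytes taken at P15. The cells are those labelled with either age among the unsorted cells processed with mSTRT-seq, a well-based single-cell method that tags transcripts, pools the barcoded cDNA and sequences it. There were 150 cells at P12 and, in a pair of runs described below, 68 and 85 cells at P15, together 6.71% of the 4514 samples of the series. Every cell at both ages carried the genotype Alb-Cre; Rosa-tdTomato, in which a recombinase driven by the albumin promoter switches on a red fluorescent reporter in hepatocytes, and the labels give neither age a treatment, a zone or a ploidy. The other samples are hepatocytes of other ages, sorted ploidy classes, nuclei, hepatocytes with transcription factors knocked out and bulk libraries.

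The days between P12 and P15 are, as background, the time when mouse pups begin to take solid food beside milk, and the labels say nothing of diet. Milk is rich in fat and poor in carbohydrate, so the suckling liver burns fatty acids and makes ketone bodies and glucose, while the weaned liver turns dietary carbohydrate into fat. Circulating glucocorticoid and thyroid hormone also rise in the mouse over this part of postnatal life, and transcripts of the fetal liver are shut down.

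No label names an animal, so the cells of an age were summed into 1 pool, and each age is 1 sample. No test of the difference between ages is possible, and no p-value is given. Levels are CPM, the summed count of a gene scaled to 1000000 summed counts of its pool, with the spike-in standards left out. A gene was called higher or lower at P15 where log2((CPM at P15 + 1)/(CPM at P12 + 1)) was at least 1 or at most -1, a 2-fold difference, among genes at 10 CPM or more at either age. Bracketed intervals on levels, ratios and shares are exact 95% intervals (Poisson for a level, binomial for a ratio or a share). They cover at most counting error, not the spread between cells, runs of cells or animals. They are thus not the precision of a difference between ages.

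The pools held 26724520 counts at P12 and 23600132 at P15. Single cells had between 29330 and 415402 counts at P12 (median 172488) and between 36058 and 296339 at P15 (median 142550), and a median of 7111 and 6765 detected genes. The 18 hepatocyte markers summed to 142340 CPM at P12 and 140840 CPM at P15. Markers of other cells were low: 11 endothelial markers summed to 12.6 and 12.1 CPM, 8 cholangiocyte markers to 13.1 and 12.7 CPM, 13 macrophage markers to 102.9 and 71 CPM, 11 stellate markers to 46.2 and 21.2 CPM, and 12 lymphocyte and neutrophil markers to 2.2 and 1.5 CPM, with 5 and 6 of these 12 at 0. Of 10 genes known to respond to tissue dissociation, 1 was called (Dusp1, higher), with a median log2 of 0.07. No cell repeated another's counts.

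The cells of each age fell into a pair of runs along their label numbers. The share of a cell's counts that came from spike-ins had a median of 2.81% in the first 98 cells labelled P12 and of 0.704% in the other 52, and of 3.05% in the first 68 cells labelled P15 and of 1.24% in the other 85. The labels say nothing of what separates these runs, and the split was made after the data were seen. Between the runs of P15, 558 of 6550 genes (8.52%) differed at least 2-fold, and between the runs of P12, 2.35% of 6777, against 3.71% of 6599 between the pools of P12 and P15. The runs of 1 age thus differed in more genes at P15 than the ages did, and the genes the results turn on are given with the levels of their 4 runs, the 2 of P12 first. The part of the runs in the differences between ages was not tested.

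Of the 6599 genes, 1.71% were called higher at P15 and 2.00% lower. The median log2 difference of all 6599 was -0.09. Scaling by TMM, which assumes that most genes keep their level, moved this median by 0.11 and turned the split into 140 genes higher and 93 lower, so that 60.1% of calls were higher against 46.1% in the pools as deposited. The runs of P12 lay wholly below those of P15 for 80.5% of the higher genes, and wholly above for 91.7% of the lower genes. Over all 6599 genes, 2773 (42%) had runs that did not overlap. Calls were made on the pools that sum these runs, so a larger share among called genes was partly set in advance. Between every pair of runs the difference was at least 2-fold for 34 of the higher genes (0.515% of all tested) and 41 of the lower genes (0.621%). These shares of all genes are the background for the counts in gene lists below. Thrsp, Aldh1a1, Mfsd2a and H19 were given as markers of this step, chosen with earlier results of these data known. They are counted in the lists that hold them.

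**Figure D1:**
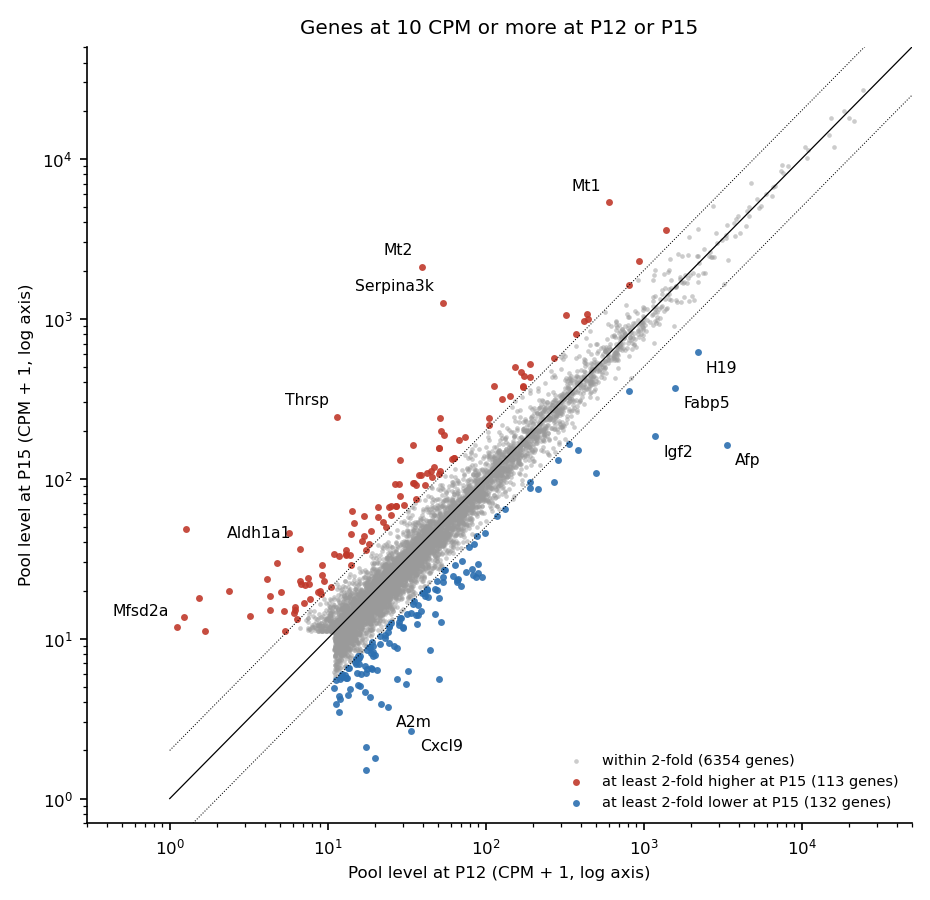
Pool level of each gene at P12 (horizontal) and P15 (vertical), in CPM + 1 on log axes, 1 point per gene at 10 CPM or more at either age; the solid line marks equality and the dotted lines a 2-fold difference. The genes called higher (red, 1.71% of those shown) and lower (blue, 2.00%) lie outside the dotted lines, with Mt2, Serpina3k and Thrsp far above and Afp, Igf2 and Cxcl9 far below.

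The first gene to describe is Thrsp, which encodes a nuclear protein that promotes lipid synthesis and is known as a target of thyroid hormone and carbohydrate. It lies on chromosome 7 at 97412938-97417730, minus strand (GRCm38; all coordinates are of that build). Its level was 10.5 CPM at P12 (9.29 to 11.8) and 242.8 CPM at P15 (236.6 to 249.2), a ratio of 23.2 (20.6 to 26.2). The runs stood at 17.2, 0.74, 60.2 and 367 CPM, so both runs of P15 were above both of P12, but the runs of 1 age differed from each other by several fold. After each cell was thinned to 50000 counts, Thrsp was detected in 16.2% of cells at P12 (10.7 to 23.2%) and in 67.1% at P15 (59 to 74.5%). Without thinning the shares were 30.7% and 81%. Among cells of P15 the level ran from 0 to 2773 CPM, and the median cell stood at 8.4 CPM in the first run and 82.1 CPM in the second.

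Aldh1a1 encodes a retinaldehyde dehydrogenase that makes retinoic acid and is found in hepatocytes near the central vein (chromosome 19 at 20492715-20643465, plus strand). It stood at 5.69 CPM at P12 (4.82 to 6.67) and at 35.3 CPM at P15 (32.9 to 37.8), a ratio of 6.21 (5.21 to 7.43). Its 4 runs were at 7.82, 2.58, 25.0 and 42.3 CPM and did not overlap between ages. In thinned cells it was detected in 20.3% at P12 (14.1 to 27.7%) and 61.8% at P15 (53.6 to 69.6%).

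Mfsd2a, which carries lysophospholipids bound to fatty acids such as docosahexaenoic acid across membranes (chromosome 4 at 122946850-122961188, minus strand), was close to undetected at P12. Its pool held 3 counts at P12, 0.11 CPM, and 10.8 CPM at P15, a ratio of 96.3 (32.6 to 470). The runs stood at 0.19, 0, 8.79 and 12.2 CPM. A count was found in 2% of cells at P12 (0.414 to 5.73%) and 20.9% at P15 (14.8 to 28.2%). After thinning, 0 cells held a count at P12, which allows up to 2.46% of cells with a count at that depth, and 13.8% did at P15 (8.76 to 20.3%). These shares limit cells with a count, not cells expressing the gene. Of the P15 total, 1 cell held 12.5%. The log2 difference was 3.17 in the mean over cells, 2.21 without the top 5% of cells and 3.04 in the first runs alone, against 3.41 for the pools, but in these 3 settings the level was under 10 CPM at both ages and the call was lost.

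H19 is an imprinted long non-coding RNA of the fetal liver, beside Igf2 (chromosome 7 at 142575529-142578143, minus strand). It went the other way, at 2196 CPM at P12 (2178 to 2214) and 616 CPM at P15 (606 to 626), a ratio of P12 to P15 of 3.56 (3.50 to 3.63). The runs of 1 age were alike, at 2094 and 2345 CPM for P12 and at 615 and 617 CPM for P15. Every cell of both ages had H19 counts. Cells ran from 53.7 to 5562 CPM and from 479 to 5224 CPM in the runs of P12, with medians of 2032 and 2047 CPM. At P15 they ran from 7.81 to 2879 CPM and from 9.98 to 2433 CPM, with medians of 250 and 388 CPM, so the highest cells of P15 were above the median cell of P12.

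**Figure D2:**
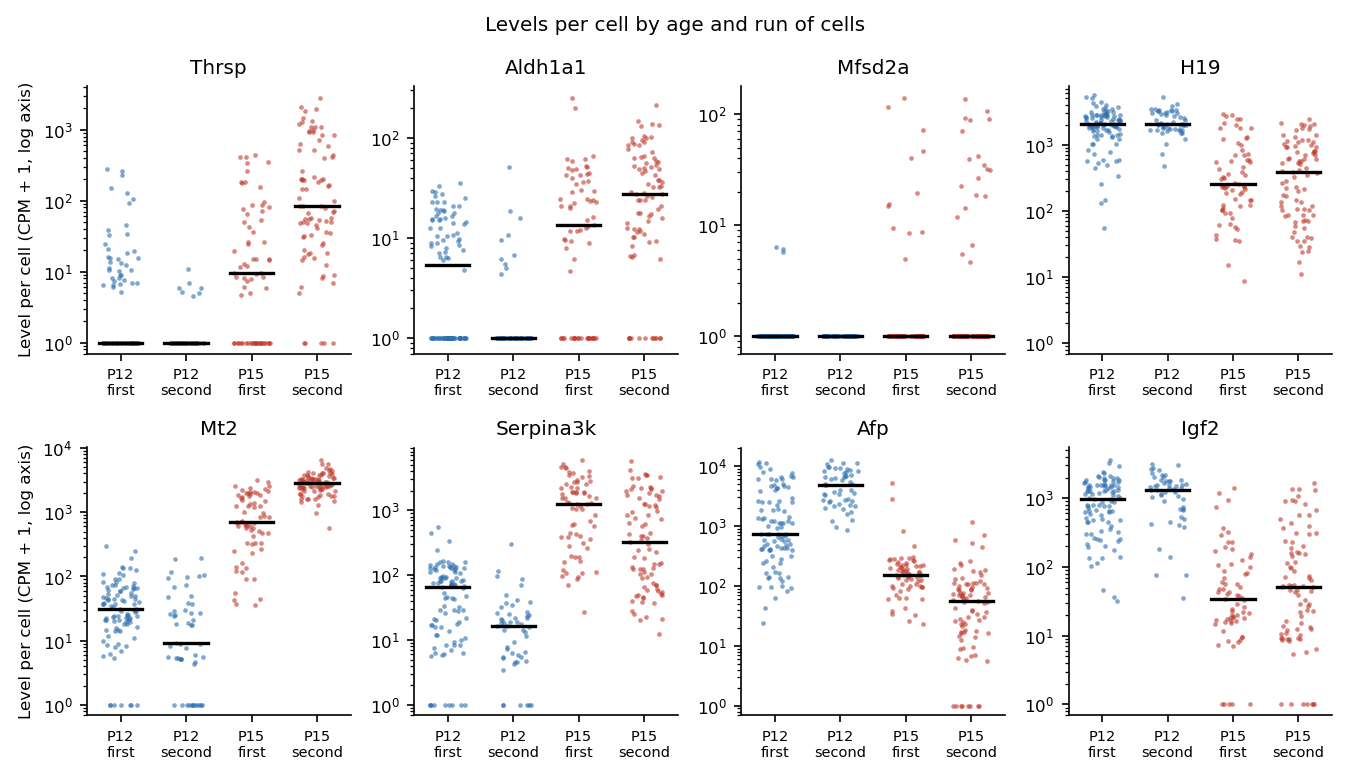
Level of 8 genes in each cell (CPM + 1, log axis), by age and by run of cells (98 and 52 cells of P12 in blue, 68 and 85 cells of P15 in red), with 1 point per cell and a bar at the median. H19, Afp and Igf2 are lower and Mt2 and Serpina3k higher in both runs of P15; Mfsd2a is at 0 in most cells of every run.

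Fetal liver genes were lower at P15. Of the 11 members of the fetal list at 10 CPM or more, 8 were called lower and 0 higher, against 2.00% and 1.71% of all genes. The list's median log2 was -1.13 against -0.09 for all genes. Of the 8, 5 were at least 2-fold lower between every pair of runs, against 0.621% of all genes. That fetal genes are lower in more mature cells was already known from these data, and the list is no independent evidence of it. Afp, the fetal counterpart of albumin, was at 3362 CPM at P12 and 161.9 CPM at P15, a ratio of 20.8 (20.1 to 21.4). Its runs were at 2120, 5175, 253.2 and 99.8 CPM, so that the P12 runs differed more than 2-fold from each other, and 1 cell held 18.4% of the P15 count. Igf2, an imprinted fetal growth factor, was at 1174 and 183.1 CPM (runs 1049, 1356, 123.1 and 223.8), and the median cell of the P15 runs stood at 33.4 and 50.2 CPM. The fatty acid binding protein Fabp5 was at 1589 and 371 CPM (runs 1302, 2007, 189.1 and 494). Gpc3, Peg3, Cdkn1c and Bex1 were the other members called.

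Further genes with the lowest P15 levels relative to P12 were of several kinds. Meg3, an imprinted maternally expressed non-coding RNA, stood at 20.7 and 2.88 CPM, and its runs at 16.0, 27.7, 0.73 and 4.34 CPM. Inhbb, a subunit of activin B, was at 30.5 and 4.19 CPM (runs 28.2, 33.9, 5.0 and 3.6), and was detected in 65.5% of thinned cells at P12 and 14.5% at P15. A2m, a broad protease inhibitor of plasma, stood at 23 and 2.75 CPM (runs 14.3, 35.7, 1.05 and 3.92). The chemokine Cxcl9 was at 32.9 and 1.65 CPM (runs 34.1, 31.1, 3.03 and 0.71), but it was found in only 14.9% and 8.6% of thinned cells, and 1 cell held 50.3% of its P12 count. Without the top 5% of cells its log2 difference was -1.06, against -3.68 for the pools, at a level under 10 CPM. Tsc22d1, a transcriptional regulator, was at 498 and 107.2 CPM (runs 454, 564, 86.3 and 121.4). The amino acid transporter Slc1a4 was at 85.6 and 23.1 CPM (runs 96.4, 69.8, 24.6 and 22.1). With H19 and the 3 fetal genes above, Gm26917, Gm6166, Auts2, Arl5c and Akr1b7 made up the 15 genes named as lowest. Between every pair of runs 15 of the 15 were at least 2-fold lower, against 0.621% of all genes. The 15 were picked for the largest differences between pools that sum these runs, so this share was largely set in advance.

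Among the genes highest at P15 relative to P12 were both metallothioneins of the liver, small proteins that bind zinc and copper and respond to metals and glucocorticoid. Mt2 (chromosome 8 at 94172664-94173568, plus strand) was at 38.4 CPM at P12 and 2119 CPM at P15, a ratio of 55.1 (51.8 to 58.7). Its runs stood at 44.5, 29.5, 1018 and 2868 CPM, and the median cell at 30.2, 8.09, 706 and 2823 CPM. Mt1, its neighbour at 94179082-94180327, was at 606 and 5350 CPM, a ratio of 8.83 (8.68 to 8.97), with runs at 675, 506, 4358 and 6026 CPM. Neither gene's runs overlapped between the ages, which held for 80.5% of all genes called higher.

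Serpina3k, a plasma serine protease inhibitor (chromosome 12 at 104338486-104346144, plus strand), was at 52.4 CPM at P12 and 1260 CPM at P15 (runs 70.4, 26.1, 1678 and 974.6). It has close relatives in a gene cluster, so the member counted is uncertain. Prodh, which starts proline breakdown, was at 4.71 and 45 CPM (runs 7.19, 1.1, 69.4 and 28.5). Nlrp12, an intracellular receptor that restrains inflammation, stood at 3.78 and 28.5 CPM (runs 3.72, 3.86, 47.3 and 15.7). The plasma inhibitor Mug1 was at 50.1 and 239.02 CPM (runs 53.4, 45.3, 177.5 and 280.9), and Gpt, the alanine aminotransferase, at 51.2 and 197.8 CPM (runs 51.3, 51.1, 218.8 and 183.6). All 5 had both runs of P15 above both of P12, as did 80.5% of all genes called higher. These genes were picked for large differences between the pools, so this was partly set in advance.

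Of the 15 genes ranked highest, 10 were at least 2-fold higher between every pair of runs and 5 were not, against 0.515% of all genes. This share too was largely set in advance by picking on the pools. Lpin1, a phosphatidate phosphatase, had runs at 40.3, 9.29, 75.2 and 168.1 CPM, and Rgs16, a regulator of G protein signalling, at 11.6, 16.7, 80.5 and 32.8 CPM, both without overlap. Fgf21, a hormone of the fasted and suckling liver, was at 13.4 and 62.2 CPM in the pools, but its P15 level lay in the first run (134.8 CPM, against 12.7 CPM in the second, and 15.3 and 10.5 CPM at P12). The kinase Pim3 was high in the second run of P15 alone (33.5, 34.5, 31.5 and 248.3 CPM). So was Ciart, a repressor of the circadian clock (4.48, 1.1, 1.99 and 36.6 CPM). For Pim3 and Ciart the first runs alone gave log2 differences of -0.086 and -0.87, against 2.21 and 2.52 for the pools.

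**Figure D3:**
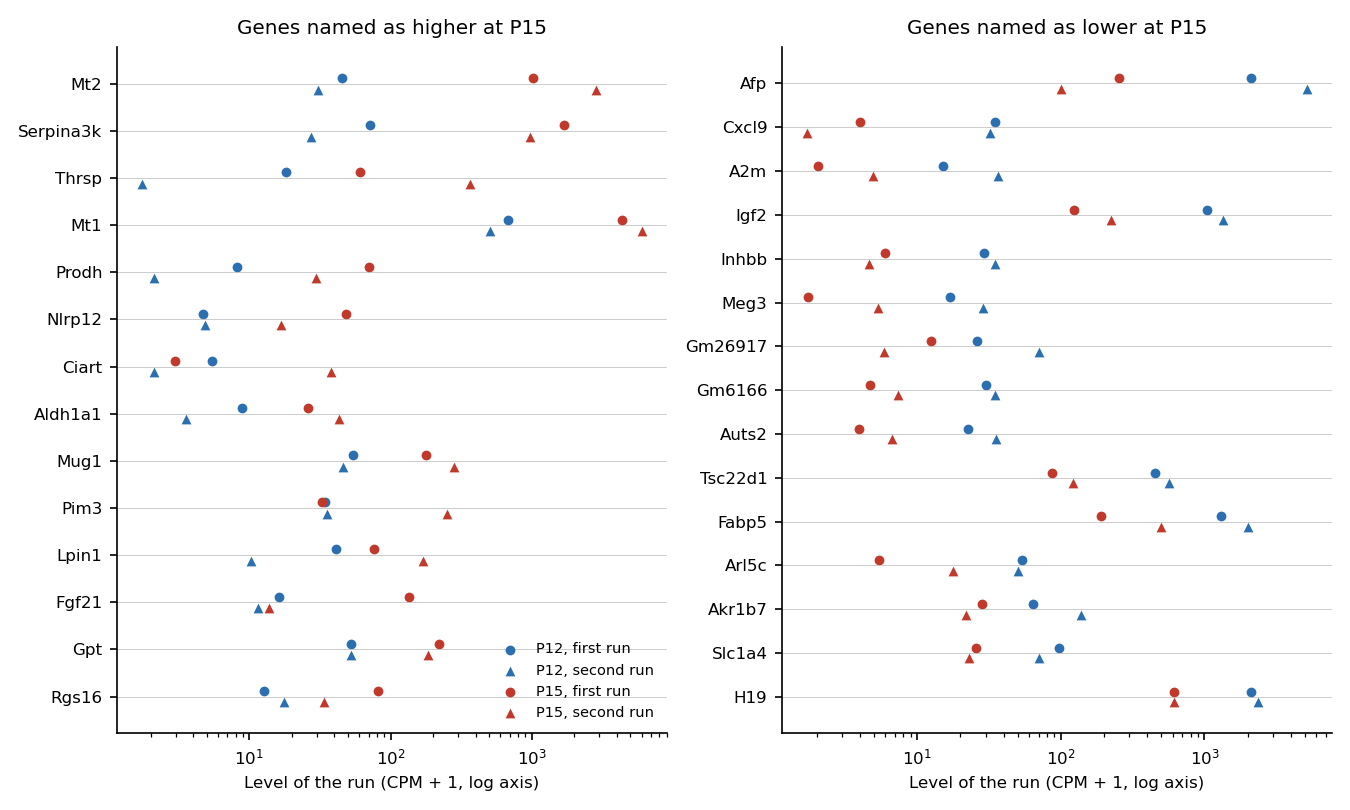
Level (CPM + 1, log axis) of 14 of the 15 genes ranked highest (left) and the 15 named as lower (right) in each run of cells, with circles for the first and triangles for the second run of P12 (blue) and P15 (red). Blue and red are apart for all 15 lower genes, against 91.7% of all genes called lower. On the left, a red point lies at or among the blue ones for Ciart, Pim3 and Fgf21.

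Several genes for the use of amino acids were higher at P15. Of 22 genes of amino acid breakdown, all at 10 CPM or more, 7 were called higher and 0 lower, against 1.71% and 2.00% of all genes, with a median log2 of 0.44 against -0.09. Of the 7, 3 were 2-fold higher between every pair of runs, against 0.515% of all genes. Sds, which deaminates serine to pyruvate, was at 1.38 and 18.8 CPM, a ratio of 13.6 (9.68 to 19.51), mostly in the second run of P15 (runs 1.2, 1.66, 3.24 and 29.3). Hal, the first enzyme of histidine breakdown, was at 49.7 and 155.6 CPM without overlap between runs (54.9, 42.2, 145.4 and 162.4). Sdsl stood at 15.6 and 40.0 CPM, and Prodh is given above. Tat, Tdo2 and Aass, which act on tyrosine, tryptophan and lysine, were the other members called. Tdo2 was at 435, 456, 961 and 1011 CPM in the runs, whereas the first runs alone gave Tat a log2 difference of -0.31 against 1.3 for the pools (461, 398, 371 and 1547 CPM).

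The urea cycle, which disposes of the nitrogen, had 3 of 10 members called higher and 0 lower (median log2 0.58), against 1.71% and 2.00% of all genes. Of the 3, 2 were 2-fold higher between every pair of runs, against 0.515% of all genes. Arg1, which releases urea, was at 1384 and 3599 CPM (runs 1561, 1125, 3138 and 3913). Ass1, which joins citrulline to aspartate, stood at 939 and 2308 CPM (runs 951, 922, 1720 and 2709), and Asl, which splits the product, at 419 and 973 CPM (runs 421, 416, 928 and 1003). In all 3 genes both runs of P15 were above both of P12, as in 80.5% of all genes called higher. Gluconeogenesis had 5 of 10 members called higher and 0 lower (median log2 1.03), against 1.71% and 2.00% of all genes. The 5 were Sds, Gpt and Tat, as above, Got1, and Slc37a4, the transporter that brings glucose 6-phosphate to glucose 6-phosphatase. Of the 5, 2 were 2-fold higher between every pair of runs. The summed list was at 6476 and 6050 CPM in the runs of P12 and at 6145 and 10443 CPM in those of P15, so it was not higher in the first run of P15. Slc37a4 was at 125.9 and 312.5 CPM (runs 146.3, 96.1, 331.2 and 300).

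Lists for carbohydrate and fat held between 0 and 2 called members each, against 1.71% of all genes called higher and 2.00% lower. Of 12 genes of glycolysis and fructose use, 1 was called higher and 0 lower (median log2 0.13). In fatty acid synthesis, 2 of 16 members were called higher and 0 lower (median log2 0.08). Of the 2, Thrsp is a given marker, chosen with earlier results of these data known. The other was Me1, the malic enzyme that supplies NADPH, at 13 and 28.1 CPM (runs 14.1, 11.5, 44.7 and 16.7). Srebf1, which encodes a master regulator of lipid synthesis, was at 160.8 and 107.2 CPM, below a 2-fold difference. The central enzyme Fasn stood at 23.8 and 23.9 CPM. Cholesterol synthesis had 0 of 18 members called, with a median log2 of -0.47 (-0.36 under TMM). Cyp51, an enzyme that removes a methyl group from lanosterol, stood at 22.3 and 11.1 CPM (runs 25.7, 17.4, 5.44 and 15). Idi1 and Msmo1, further enzymes of the pathway, were below P12 in the first run of P15 and above the second run of P12 in the second (30.3, 13, 5.02 and 19.4 CPM, and 56.3, 21.5, 13.2 and 36 CPM).

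In fatty acid oxidation 0 of 21 members were called (median log2 0.09), and in ketogenesis 0 of 5 (median log2 -0.17). Targets of PPARA, the receptor for fatty acids, had 4 of 16 called higher and 0 lower (median log2 0.17), against 1.71% and 2.00% of all genes. Of the 4, 0 were 2-fold higher between every pair of runs. The 4 were Fgf21, described above, Cyp4a10 (111.4 and 376 CPM), Angptl4, an inhibitor of lipoprotein lipase (46.3 and 116.8 CPM), and Pex11a of peroxisome division (29.4 and 67.6 CPM). Cyp4a10, a fatty acid hydroxylase, was highest in the first run of P15 (runs 102.2, 124.9, 657 and 185.2). Among 25 genes of lipoproteins and lipid transport, Apoa5, which speeds the clearance of triglyceride, was called higher at 323.97 and 1048 CPM (runs 334.8, 308.1, 1282 and 889), as was Mfsd2a, and Fabp5 was called lower.

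Hormone-responsive lists held several of the same genes. Of 16 glucocorticoid-responsive genes, 7 were called higher and 0 lower, against 1.71% and 2.00% of all genes, with a median log2 of 0.71. Between every pair of runs 3 of the 7 were 2-fold higher, against 0.515% of all genes. Besides Mt1, Mt2 and Tat the 7 included Zbtb16, Dusp1, Sgk1 and Cdkn1a. Zbtb16, a transcription factor, had 14 counts at P12 (0.52 CPM) and 400 at P15 (16.9 CPM), a ratio of 32.4 (19.1 to 59.7), and was found in 4.73% and 46.1% of thinned cells (runs 0.76, 0.18, 8.58 and 22.6 CPM; the second value is 2 counts). Dusp1, a phosphatase that dampens MAP kinases, and Cdkn1a, an inhibitor of the cell cycle, were highest in the second run of P15, while the first run of P15 was not above both runs of P12 (45.5, 26.8, 36 and 150 CPM, and 188.5, 74.9, 60.8 and 511 CPM). Of 11 genes responsive to or handling thyroid hormone, Thrsp, Klf9 and Me1 were called higher, against 1.71% of all genes. Serpina7, the thyroxine-binding globulin of plasma, was called lower (131.8 and 64.1 CPM), against 2.00% of all genes. The median log2 of this list was -0.15 against -0.09 for all genes, with 5 members above 0 and 6 below. Thrsp is a given marker, chosen with earlier results of these data known. Klf9, a transcription factor, was at 26 and 66.7 CPM (runs 29.1, 21.6, 39 and 85.5) and was the 1 of 36 listed transcription factors to be called. Of 11 growth hormone genes, 0 were called (median log2 -0.31), with the binding protein Igfbp2 at 3232 and 1649 CPM.

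Drug-metabolising enzymes had 9 of 50 members called higher and 0 lower, against 1.71% and 2.00% of all genes, with a median log2 of 0.46. Between every pair of runs 2 of the 9 were 2-fold higher, against 0.515% of all genes. Of the 9, the carboxylesterase Ces1f was at 3.33 and 14.0 CPM, Cyp2a5 at 53.6 and 186.5 CPM and Cyp2c29 at 151.5 and 497 CPM. All 3 were highest in the first run of P15 (27.2, 347 and 752 CPM, against 5.06, 77 and 324.3 CPM in the second). For these families of near-identical genes the member counted is uncertain. Of 14 retinoid genes, 1 was called, the given marker Aldh1a1. Bile acid genes had 2 of 20 called higher and 0 lower (median log2 0.16), against 1.71% and 2.00% of all genes. The 2 were the uptake transporter Slco1a4 (61.9 and 134.4 CPM) and Cyp27a1, which starts the acidic pathway of synthesis (62.2 and 134.3 CPM). Between every pair of runs 0 of the 2 were 2-fold higher.

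**Figure D4:**
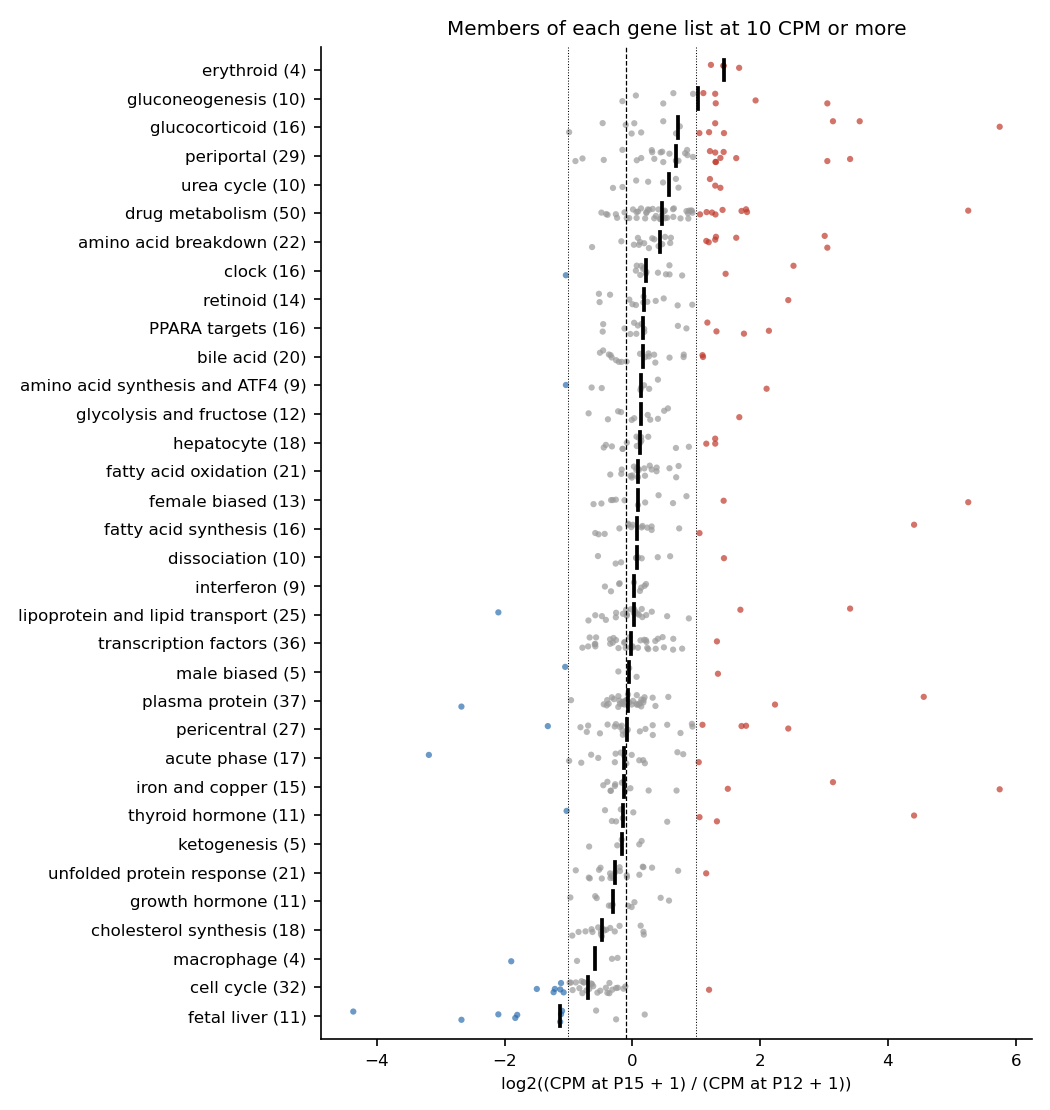
Difference between ages on the scale log2((CPM at P15 + 1)/(CPM at P12 + 1)) for each member at 10 CPM or more of each gene list with 4 or more such members (number in brackets), with a black bar at the list's median; red and blue points lie past a 2-fold difference (dotted lines), and the dashed line is the median of all genes, -0.09. Gluconeogenesis, glucocorticoid and periportal lists have medians above 0.6 and the fetal list a median of -1.13; the 4 erythroid genes at the top owe their place to 1 cell.

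By place in the lobule, 9 of 29 periportal genes were called higher at P15 and 0 lower, against 1.71% and 2.00% of all genes. The list's median log2 was 0.69 (0.80 under TMM). Of the 9, 4 were 2-fold higher between every pair of runs, against 0.515% of all genes. The 9 were Mfsd2a, Sds, Hal, Cyp17a1, Cyp2f2, Sdsl, Ass1, Asl and Arg1, of which several belong to the amino acid and urea lists above. Mfsd2a, which is among the 4, is a given marker, chosen with earlier results of these data known, as is Aldh1a1 in the pericentral list below. Cyp17a1, a steroid hydroxylase, was at 8.23 and 23.9 CPM (runs 9.52, 6.35, 33 and 17.7). Of 27 pericentral genes, Aldh1a1, Cyp2a5, Cyp2c29 and Cyp27a1 were called higher and the ammonium transporter Rhbg lower (61.1 and 23.8 CPM; runs 63.5, 57.5, 26.2 and 22.2). The median of the pericentral list was -0.09, and 0.02 under TMM, so its sign depends on the scaling. The summed level of the pericentral list was 14945 CPM in the first run of P15 and 9185 CPM in the second, and that of the periportal list 61488 and 62629 CPM.

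Within an age, cells could be ordered by periportal minus pericentral level (log2 of summed thinned counts, the gene itself left out). Across the thinned cells of P15, Thrsp followed this order with a Spearman correlation of 0.57 (0.49 in the 68 cells of the first run and 0.52 in the 84 of the second). At P12 it was 0.14 (0.23 and -0.04 in the runs). H19 gave 0.36 at P15 (0.38 and 0.36 in the runs) and 0.05 at P12, where the runs had opposite signs (0.18 and -0.22). Serpina3k gave 0.42 at P15 (0.62 and 0.49) and 0.20 at P12 (0.24 and 0.20). Afp gave -0.49 at P12 (-0.59 and -0.60) and -0.22 at P15 (-0.24 and 0.01). Aldh1a1, the pericentral marker, gave 0.06 at P15 (0.05 and -0.05). These are descriptions across cells that share a pool, and low detection at P12 limits what could be seen there for Thrsp.

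On either side of this step, 2.08% of 6644 genes differed at least 2-fold between P9 and P12, and 3.16% of 6480 between P15 and P18; these steps share a pool with the present one. For several genes P15 was the first high level and the level went on upward. Thrsp was between 0.2 and 12.2 CPM in the 7 pools from E17.5 to P12, then at 242.8, 245.04, 490 and 1054 CPM at P15, P18, P24 and P30. Aldh1a1 was at 35.3, 154.5, 316.4 and 945 CPM and Mfsd2a at 10.8, 17.3, 60.1 and 112.3 CPM at the same ages. H19 stayed between 1741 and 2470 CPM in all 7 pools up to P12 and was then at 616, 387, 31.3 and 7.4 CPM. Igf2 was at 183.1, 18.8, 3.6 and 2.0 CPM.

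Other genes returned at P15 to levels they had had before, or stood highest at P15. Mt1 was at 8036 CPM at E17.5, 248.3 CPM at P9 and 606 CPM at P12 before its 5350 CPM at P15, and Mt2 at 1940, 13.6 and 38.4 CPM before its 2119 CPM. Apoa5 was at 762 CPM at P6, 323.97 CPM at P12 and 1048 CPM at P15. Arg1 stood at 3599 CPM at P15 and at 1960 CPM at P18, Asl at 973 and 629 CPM, Sds at 18.8 and 4.1 CPM, Trib3, a pseudokinase of the amino acid response, at 17.4 and 6.1 CPM, and Pim3 at 160 and 53.1 CPM. For these last 5 genes the P15 level was above those of P12 and P18.

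**Figure D5:**
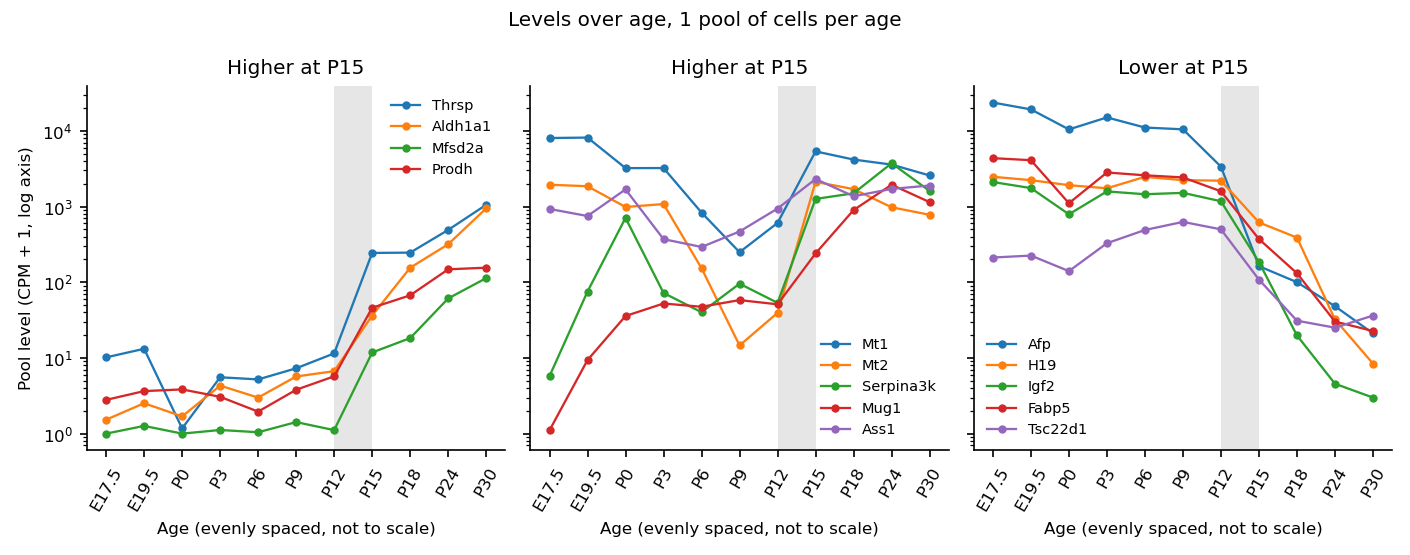
Pool level (CPM + 1, log axis) of 14 genes at 11 ages from E17.5 to P30, 1 pool of cells per age, with the step from P12 to P15 shaded; ages are evenly spaced and not to scale. Thrsp, Aldh1a1, Mfsd2a and Prodh leave a low level at P15, Mt1 and Mt2 return from a minimum at P9, and Afp, H19, Igf2, Fabp5 and Tsc22d1 are lower after P12.

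Nuclei of sorted hepatocytes, a separate set of samples with their own normalization, were collected at P9 and P18, on both sides of the step. In 2N nuclei (75 at P9, more at P18) Thrsp was at 0.35 and 320 CPM and Aldh1a1 at 0.47 and 95.1 CPM. Mfsd2a stood there at 0.12 and 27.5 CPM and H19 at 996 and 116.03 CPM. In 4N nuclei (21 and 46) the same 4 genes were at 20.6 and 456, 1.0 and 243.5, 0 and 56.9, and 628 and 10.5 CPM. Each marker thus differed in the same direction in both classes of nuclei as in cells, although a P9 value of 3 counts or fewer (Thrsp, Mfsd2a in 2N, Aldh1a1 and Mfsd2a in 4N) is at or below the floor of the pool. Auts2, an intron-rich gene, was at 2307 and 18.9 CPM. Mt2 was less far apart in nuclei, at 452 and 645 CPM in 2N and at 357 and 541 CPM in 4N, and Mt1 stood at 961 and 1055 CPM in 2N nuclei. Some genes called higher at P15 in cells were lower at P18 than P9 in nuclei. In 2N nuclei Trib3 was at 28.7 and 0.86 CPM, Fgf21 at 114.5 and 12.2 CPM and Cdkn1a at 97.6 and 37.3 CPM. All 3 were also lower at P18 in 4N nuclei. Fgf21 was lower at P18 than P9 in the cell pools as well (80.1 and 36.4 CPM). Serpina3k and Ciart are listed at 0 in every pool of nuclei.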

How the data were processed

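Each sample used here is 1 cell or nucleus, picked or sorted into lysis buffer per the labels' protocols. The authors deposited whole-number counts per gene symbol, not normalized; the submitters' processing notes name TopHat2 2.1.0, featureCounts 1.5.3, UMI-tools 0.5.0, HISAT2 2.1.0, HTSeq 0.6.0 and other tools without a role, and the builds GRCm38 and mm10. Which counter was used, whether strand was used, how shared reads were counted and whether a count is a read or a molecule is not stated in the sources at hand. Amplified reads are not independent molecules. If the counts are reads, every interval and detection limit is too narrow even for counting error.

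Columns were assigned to ages by their names, and 1394 columns of other groups were not used. The 92 spike-in entries were left out, leaving 40824 gene symbols. There were 303 cells, 150 at P12 and 153 at P15; of 6599 genes, 113 were called higher and 132 lower at P15. Counts were summed per age and divided by the pool's total. A count of 3, the detection floor, is 0.112 CPM at P12 and 0.127 CPM at P15. Shares of cells were taken after drawing 50000 counts without replacement from each cell that had them (148 of 150 and 152 of 153), and Clopper-Pearson intervals are given. No cell was filtered out otherwise and no doublet caller was run, since cells were picked singly. The call rule was tested on simulated pools with known changes. Those counts were Poisson draws from a profile shared by all cells of an age, without spread between cells or runs. The test therefore does not show how the rule fares with such spread.

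Genes singled out by rule are the 4 given markers, up to 4 members with the largest difference in each list, and the 15 genes with the largest difference in each direction at 20 CPM or more, with a count in at least 20% of cells and a log2 difference past 2-fold, whatever the floor, also in the mean over cells and without the top 5% of cells. A few genes that the rule picks are not reported here. Fasn, the list members named without values and the genes named for the runs they lie in were chosen after their values were seen. The members, lists and markers were chosen with earlier results of these data known. Runs of cells were cut at the label number that best divided the log spike-in share, after blocks of labels and cuts chosen by eye had been looked at together with gene levels. Alternatives were other scalings (TMM in edgeR 4.0.16, R 4.3.3, and the median of ratios), other weights of cells, floors and pseudocounts, thinning, and leaving out cells. Python 3.11.15, pandas 2.3.3, numpy 2.4.6, scipy 1.17.1 and matplotlib 3.10.9 were used. Gene coordinates are from GENCODE M21 on GRCm38.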

Additional observations from a re-analysis of the deposited data

How the results depend on the processing

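In the pools 1.71% of genes were higher and 2.00% lower. The higher share was 0.397% with no floor, 2.66% with a floor of 50 CPM, 2.71% in the first runs alone and 0.515% with the smallest difference between runs. The lower share was 1.32% under the median of ratios, 0.693% with no floor, 1.56% with a floor of 50 CPM, 1.11% with a pseudocount of 5 CPM, 4.46% and 5.70% in the first and the second runs alone and 0.621% with the smallest difference between runs. A floor changes the genes tested and a larger pseudocount shrinks folds; for the runs and the median of ratios the cause was not tested. The runs and the haemoglobin-rich cell were chosen after seeing the data. Of 77 genes singled out by rule and called, 73 kept their call (2-fold and at the floor) under TMM, under the median of ratios and after thinning, 72 in the mean over cells, 64 without the top 5% of cells, 70 with a pseudocount of 5 CPM, 54 in the first runs and 66 in the second. With a floor of 50 CPM 43 did, and 77 with no floor; a floor leaves the differences as they were. Whatever the floor, 74 were past 2-fold in the mean over cells and 70 without the top 5% of cells. In the first runs Ciart (-0.87), Pim3 (-0.086), Tat (-0.31), Dusp1 (-0.33), Hamp2 (-0.65) and Cdkn1a (-1.62) changed direction on the log2 scale. In the second runs Mup20 (0.60), Saa3 (-0.70), Hbb-bt (-2.29), Hbb-bs (-2.38), Hba-a2 (-2.65) and Hba-a1 (-3.02) did. Without the top 5% of cells per gene Saa2 (0.87), Hbb-bt (-1.28), Hbb-bs (-1.24), Hba-a2 (-1.43) and Hba-a1 (-1.63) did. The same 4 haemoglobin genes did so without the cells richest in other-cell markers (-1.09, -0.98, -1.11 and -1.23) and without 1 haemoglobin-rich cell (-1.21, -1.07, -1.30 and -1.50). No paired analysis was possible because each age is 1 pool with no replicate number and no test was made.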

Other observations

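Cell cycle genes differed with the run as well as with age. Of 32 such genes, 6 were called lower at P15 and 1 higher, against 2.00% and 1.71% of all genes. A log2 difference below 0 was found in 31, against 63.01% of all genes (47.6% under TMM), with a median of -0.70 against -0.09. Of the 6, 0 were 2-fold lower between every pair of runs. Cells with a count of Mki67, which marks cycling cells, made up 34.7% and 53.8% of the P12 runs and 14.7% and 43.5% of the P15 runs. The summed cell cycle list stood at 1882 and 2760 CPM in the runs of P12 and at 542 and 2466 CPM in those of P15, so the second run of P15 lay above the first run of P12. Cdkn1a is the member called higher.

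Haemoglobin genes were called higher at P15 (4 of 4 at 10 CPM or more), and 1 cell of P15, with erythroid markers summing to 60618 CPM, held 83.9% of all erythroid counts at that age. Without it the 4 genes were lower at P15, by 1.07 to 1.5 on the log2 scale. Among acute phase genes the serum amyloid Saa2 was at 118.97 CPM in the second run of P12 and at no more than 6.4 CPM in the other 3 runs, but 1 cell held 89.8% of its P12 count. Saa3 was highest in the first run of P15 (3.78, 7.82, 23.6 and 4.42 CPM in the runs), with 38.9% of its P15 count in 1 cell. Marco, a macrophage receptor, was called lower at P15 (16.3 and 3.64 CPM), as was Reln, known from stellate cells (41.9 and 17.2 CPM), and summed macrophage markers ranged from 47.4 to 142.5 CPM over the 4 runs. Without the 10% of cells richest in markers of other cells, 1.64% of genes were called higher and 2.11% lower, and 71 of 77 genes singled out by rule kept their call.

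The Y-linked genes Ddx3y (69.6 and 67.1 CPM) and Eif2s3y (49.8 and 53.2 CPM) were present at like levels at both ages, and Xist, the RNA that coats the silenced X of females, had 6 counts at P12 and 0 at P15. Among clock genes, Ciart and Usp2 (12 and 34.8 CPM) were called higher and Per2 (10.3 and 4.49 CPM) lower of 16, with a median log2 of 0.22. Of 21 unfolded protein response genes, 1 was called, Crebrf, higher at 7.97 and 19 CPM, and the list's median was -0.27. Interferon genes had 0 of 9 called, and major urinary proteins, where 2 of 21 reached 10 CPM, had Mup20 lower in the pools (23.5 and 10.8 CPM) and higher in the second runs alone.

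Plasma protein genes had Serpina3k and Mug1 called higher and A2m lower of 37, against 1.71% and 2.00% of all genes. The list's median log2 was -0.07, or 0.05 under TMM. Of 9 genes of amino acid synthesis and its regulator ATF4, Trib3 was called higher (3.29 and 17.4 CPM; runs 3.59, 2.85, 19.4 and 16.1) and Psph, the last enzyme of serine synthesis, lower (34.2 and 16.1 CPM). Of 15 iron and copper genes, Hamp2, a hepcidin relative, was called higher beside Mt1 and Mt2, at 21.3 CPM in the second run of P15 and between 2.6 and 5.5 CPM in the other 3 runs.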
